A study of Mus musculus with 19 samples.

Results

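Donor bone marrow-derived macrophages of mice with chronic graft-versus-host disease (GVHD) were compared with resident microglia of transplanted mice without donor T cells, gene by gene. The comparison took 9 of the 19 libraries of the series by their titles: 6 GVHD donor libraries and 3 TCD host libraries, where TCD stands for T-cell-depleted marrow. A further 4 libraries, of host microglia from GVHD mice, were read against both groups, and the remaining 6, of hippocampus, were not used. All mice received 1100 cGy of total-body irradiation in split doses and 5000000 T-cell-depleted marrow cells, and GVHD mice also received 500000 splenic T cells. Cells were isolated by flow sorting from the brain on day 70 after transplantation, so irradiation and a marrow graft are shared by every group, and no unirradiated microglia and no donor macrophages of TCD mice were analysed here. The 2 groups therefore differ in cell origin and in GVHD at once, and these cannot be told apart in the direct comparison. Mouse strains, alleles, age, sex and sort markers are not given in the labels used here, nor is it said whether libraries came from separate mice, so the p-values measure the spread between libraries. TCD host library 1 is TCD by title, but its description carries Syn, an unexplained tag, and its group is uncertain.

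Microglia are the resident macrophages of the brain, seeded from the yolk sac before birth, and they keep themselves by local division under signals such as CSF1 receptor ligands and TGF-beta. After irradiation, marrow-derived cells can enter the brain and take up residence beside them. Such cells share many macrophage genes with microglia but usually lack the microglial transcription factor SALL1 and carry more MHC class II, the molecules that present peptide to CD4 T cells. Class II genes are switched on by the coactivator CIITA, which interferon gamma induces.

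Donor macrophages and TCD host microglia were separated along the first principal component of the 13 sorted libraries, which held 59.5% of the variance. The second component, with 19.2%, set donor libraries 1 and 5 and TCD host library 1 (49.08, 45.56 and 66.15) apart from the other 10 libraries (-30.63 to 3.98). The same 3 libraries had Leng8, an RNA-processing gene, at 728, 674 and 805, and the other libraries had it at 40.4 to 93.6. Counts are therefore also given without TCD host library 1 and without all 3 libraries where they change by over 1.5 times. Titles carry an API number of unstated meaning, 1 of 2 values that both occur in every group, and it was a covariate of the model. An estimated 7901523 to 35844768 reads were assigned to genes per library, so values near 1 rest on few reads. All levels below are the authors' normalised values, for which no correction for gene length is stated.

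**Figure D1:**
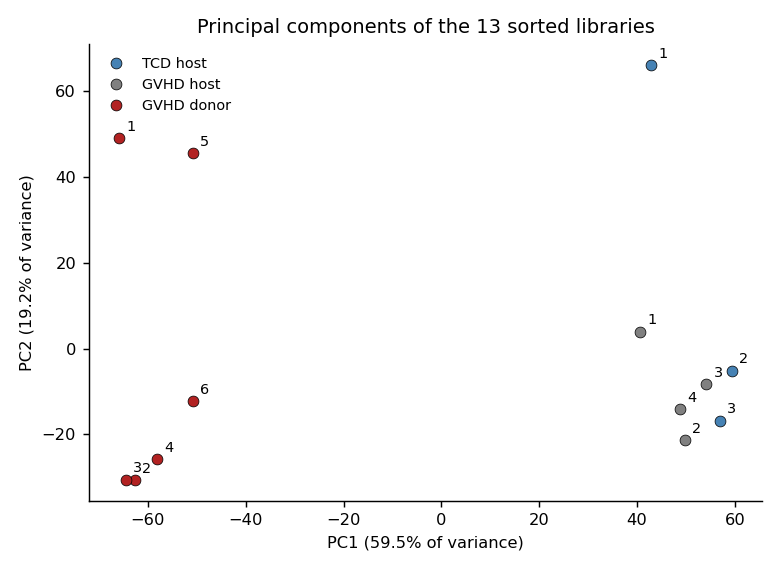
First (x) and second (y) principal component scores of the 13 sorted libraries on log2(normalised value + 1), numbered by replicate and coloured by group. The 6 donor libraries lie left on the first axis and the 7 host libraries right, and donor 1, donor 5 and TCD host 1 lie highest on the second.

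Of 13086 genes tested, 2408 were higher in donor macrophages (18.4%) and 2437 were lower (18.6%), together 37.0% of the genes, by limma at a Benjamini-Hochberg adjusted p under 0.05. These shares are the background for the list counts below, and whether any list departs from them was not tested. The difference was at least 2-fold for 1196 higher genes (9.14%) and 1013 lower genes (7.74%). The donor and TCD host libraries did not overlap in 3856 genes (29.5%), and 3570 of these genes were also called (27.3% of those tested). The median log2 difference of all genes was -0.01. When every library was rescaled to the same total, the median moved by about -0.15 and the calls went from 49.7% higher to 35.7% higher (1880 higher and 3386 lower), so small differences are relative to the authors' scale. Without TCD host library 1, 3998 of the 4845 calls were made again in the same direction, and without the 3 libraries 4404 were. In both of those fits 0 of the calls had the opposite sign.

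**Figure D2:**
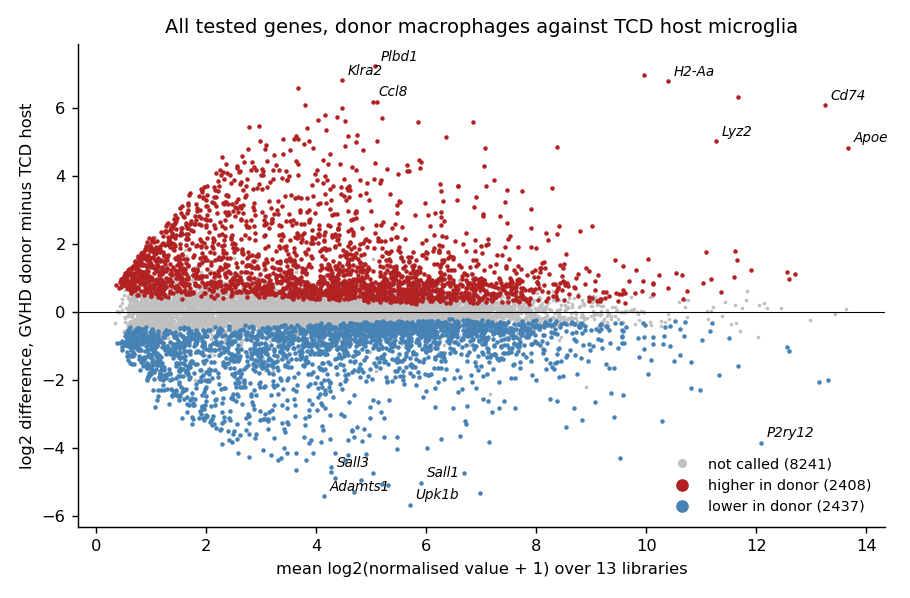
Mean level (x, mean log2 of the normalised value plus 1 over 13 libraries) against the log2 difference of donor macrophages minus TCD host microglia (y), 1 point per tested gene. Coloured points are the 2408 genes called higher and 2437 called lower, with Plbd1 at the top and Upk1b at the bottom.

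The given markers separated the groups in the direction of their labels. Lyz2 (ENSMUSG00000069516, GRCm38 chr10:117277331-117282321), which encodes the myeloid enzyme lysozyme, ran from 10511 to 18394 with a median of 14854 in donor libraries. In TCD host libraries it stood at 717, 285 and 524, a log2 difference of 5.02 ± 0.21 (SE, adjusted p = 1.21e-08). P2ry12 (ENSMUSG00000036353, chr3:59216272-59262871), the ADP receptor that guides microglial processes, ran from 682 to 1498 with a median of 1187 in donor libraries. It stood at 13428, 14226 and 18980 in TCD host libraries, a log2 difference of -3.85 ± 0.16 (adjusted p = 1.21e-08). The lowest TCD host library therefore lay far above the highest donor library, although P2ry12 was not absent from donor libraries. Upk1b (ENSMUSG00000049436, chr16:38773184-38800328), a tetraspanin gene of microglia, had the largest fall of all named genes. Its donor values were 2.04 to 13.3 with a median of 8.12, its TCD host values 254, 386 and 408, and its log2 difference -5.68 ± 0.38 (adjusted p = 1.69e-07).

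**Figure D3:**
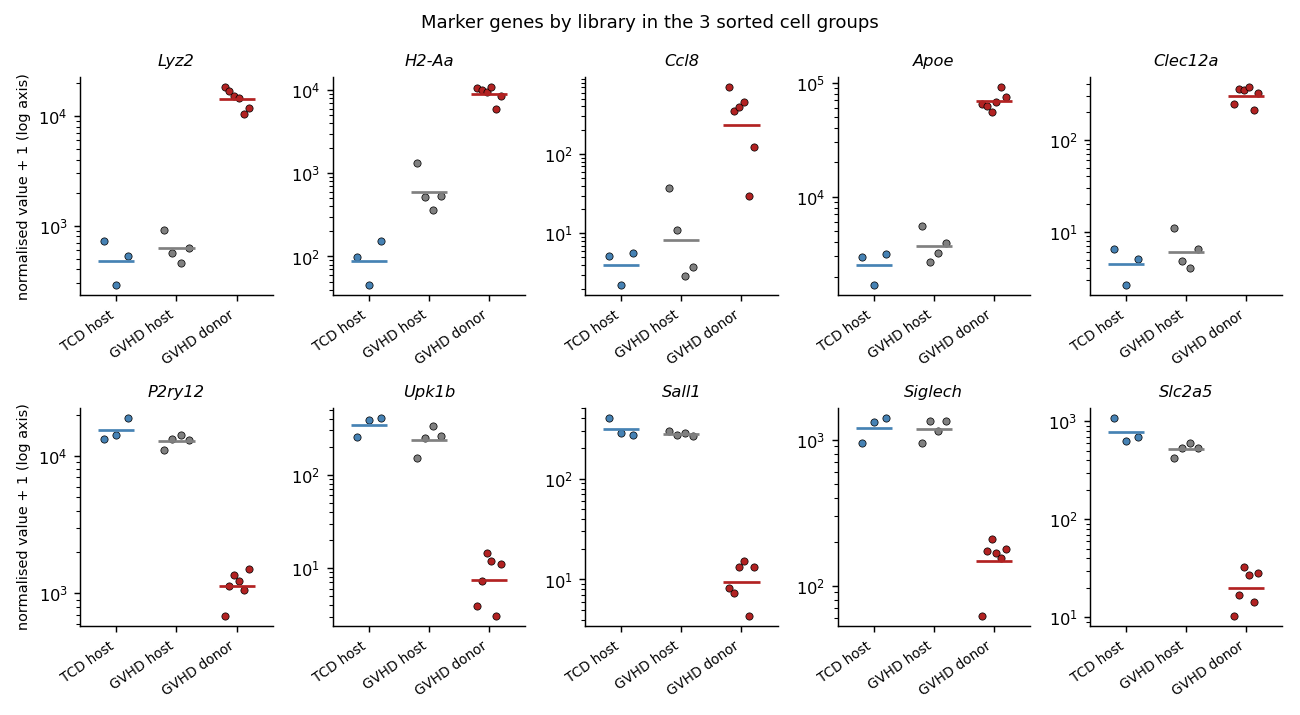
Normalised value plus 1 on a log axis in every library of TCD host, GVHD host and GVHD donor cells for 5 genes higher and 5 genes lower in donor macrophages; bars are means on the log scale. Donor and TCD host libraries do not overlap in any of the 10 genes, and GVHD host libraries lie nearest to TCD host libraries in most panels. The genes of largest difference were picked on condition of no overlap.

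Genes of macrophages that settle in the brain from marrow were higher in donor libraries as a whole list. All 19 tested members were called higher and 0 lower, with a median log2 difference of 5.02. Their summed value was 78088 to 108802 in donor libraries and 2412 to 4503 in TCD host libraries. This list rests on earlier comparisons of the same kinds of cell, so its direction is given as a description. Apoe, the lipid carrier apolipoprotein E, had donor values of 55561 to 91741 with a median of 66455. Its TCD host values were 2974, 1678 and 3165, and its log2 difference was 4.83 ± 0.25 (adjusted p = 2.83e-08). Cybb, the catalytic subunit of the phagocyte NADPH oxidase, was 1287 to 1914 (median 1735) in donor libraries against 60.2, 63.9 and 57.4 (4.85 ± 0.24, adjusted p = 2.28e-08). Neither gene came close to overlapping between the groups.

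The gene with the largest rise was Plbd1 (ENSMUSG00000030214, chr6:136612070-136661928), a phospholipase B-like gene of granules and lysosomes. It ran from 189 to 622 with a median of 417 in donor libraries and stood at 4.8, 0.422 and 1.69 in TCD host libraries (7.24 ± 0.42, adjusted p = 5.83e-08). Klra2, a lectin-like receptor gene of the Ly49 family, rose from 1.56, 0.121 and 2.17 to donor values of 137 to 252 (6.81 ± 0.41, adjusted p = 7.34e-08). Sirpb1c, a signal-regulatory receptor gene with near-identical copies whose reads may be shared, had donor values of 52.5 to 221 and TCD host values under 1 (0.252, 0.181 and 0.472). Acp5, the tartrate-resistant acid phosphatase of osteoclasts and macrophages, had donor values of 111 to 163 against 1.99, 0.905 and 1.93. Gdf3, a TGF-beta superfamily ligand, had donor values of 89.1 to 222 against 0.649, 0.121 and 2.78. The log2 differences of these 3 genes were 6.60 ± 0.46, 5.80 ± 0.29 and 6.08 ± 0.41, each on a scale that understates the change of genes near 0.

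Monocyte genes were also higher, with 16 of 17 tested members called higher and 0 lower and a median log2 difference of 3.51. Itgal and Itga4 encode the integrin chains of LFA-1 and VLA-4, with which leukocytes adhere to vessel walls. Itgal had donor values of 94.7 to 220 (median 126) against 6.62, 3.26 and 4.35 (4.76 ± 0.21, adjusted p = 1.35e-08). Itga4 had donor values of 91.9 to 207 (median 153) against 3.81, 2.11 and 3.38 (5.17 ± 0.31, adjusted p = 7.94e-08). Ace and Spn, genes of patrolling monocytes, had log2 differences of 4.09 ± 0.44 and 3.22 ± 0.39. Ccl9, a chemokine on the list, was the 1 member not called, at -1.18 ± 0.62, and without donor library 3 it was called lower (-1.53, adjusted p = 0.0284). The summed value of the list was uneven among donor libraries, from 385 to 2505, whereas TCD host libraries had 154 to 161. Ccr2, the receptor that brings monocytes to tissue and a member of both the monocyte and the chemokine receptor lists, showed the same unevenness. It ran from 48.8 to 918 with a median of 321 in donor libraries and stood at 12, 15.8 and 13.1 in TCD host libraries (4.24 ± 0.69, adjusted p = 0.000372). Without the 3 libraries that stood apart the log2 difference of Ccr2 was 4.92.

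Markers of macrophages at the borders of the brain gave a mixed list, with 7 of 14 members called higher, 0 lower and a median of 1.26. The other 7 were not called, with differences down to -0.99, and the members named below are those of smallest p. Without TCD host library 1, 9 members were called higher. That library had the highest summed value of border markers among host libraries (660, against 130 as the lowest TCD host value), and what part this plays in the list was not tested. Mrc1, the mannose receptor, was 575 to 1024 (median 854) in donor libraries and 108, 15.9 and 18.5 in TCD host libraries (4.83 ± 0.36, adjusted p = 4.06e-07, and 5.60 without the 3 libraries). Clec4n, which encodes dectin-2, had a lowest donor value of 62.6 and a median of 107, against 8.18, 1.93 and 2.78 (4.64 ± 0.34). Siglec1, a sialic acid-binding adhesion receptor, was 11.8 to 27.9 (median 16.4) against 3.63, 0.966 and 0.362 (3.12 ± 0.21). C-type lectin receptors, which bind sugars on microbes and cells, had 11 of 13 members called higher and 0 lower, with a median of 3.92. The largest among them was Clec12a, an inhibitory receptor for uric acid crystals, with donor values of 208 to 373 (median 332) against 5.45, 1.63 and 4.11 (6.18 ± 0.31, adjusted p = 2.44e-08).

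The microglial programme was lower in donor macrophages in 22 of 24 tested list members, with 0 higher and a median log2 difference of -3.13. Summed over the list, donor libraries held 17629 to 26938 and TCD host libraries 70752 to 90186. The 2 members not called were Fcrls (-0.31 ± 0.47) and Csf1r (-0.57 ± 0.26), the receptor on which both microglia and macrophages depend. Fcrls itself varied from 1146 to 3525 among TCD host libraries. Csf1r was called lower without donor library 5 (-0.72, adjusted p = 0.0102) and without the 3 libraries (-0.59, adjusted p = 0.0114). It was also called lower with the replicate number as a block (-0.82, adjusted p = 0.022) and when rescaled to a common total (-0.73, adjusted p = 0.0322). Siglech, an endocytic receptor, was 60.8 to 206 (median 168) against 950, 1313 and 1410 (-3.18 ± 0.18, adjusted p = 4.93e-08). Selplg, the P-selectin ligand, was 314 to 513 (median 378) against 4552, 3123 and 3314 (-3.21 ± 0.17). Golm1, a Golgi membrane protein gene, was 164 to 312 (median 233) against 2239, 1702 and 1814 (-3.08 ± 0.17). Because libraries are bulk samples, a small share of microglia among sorted donor cells and a low level in each donor cell cannot be told apart.

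Other genes that fell furthest were of mixed function. Slc2a5, the fructose transporter, went from 1083, 635 and 689 in TCD host libraries to 9.33 to 31.8 (median 21.1) in donor libraries (-5.35 ± 0.32, adjusted p = 7.24e-08). Adamts1, a secreted metalloproteinase gene, stood at 79.5, 208 and 77.9 against donor values of 0.22 to 5.17 (median 2.14, -5.43 ± 0.38). Mlxipl, which encodes the sugar-responsive factor ChREBP, stood at 695, 101 and 75.8 against 1.19 to 8.81 (median 3.38, -4.95 ± 0.35). Its highest TCD host value, like that of Adgrg1 at 1253 against 387 and 327, came from TCD host library 1. Adgrg1 is an adhesion receptor gene with donor values of 7.37 to 26.5 (-4.74 ± 0.35, and -4.36 without that library). Csmd3, Nav3, Ecscr, Jam2 and Sgce, which encode membrane, cytoskeletal or junction proteins, had log2 differences from -5.32 ± 0.42 (Csmd3) to -4.73 ± 0.37 (Sgce). Their groups did not overlap, but the rule that picked them required this. Of all tested genes, 29.5% had no overlap.

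Transcription factors of myeloid lineages moved both ways, with 7 of 24 members called higher, 6 lower and a median of 0.05. Sall1, the zinc-finger factor that maintains microglial identity, stood at 401, 281 and 274 in TCD host libraries and at 3.33 to 14.4 (median 9.79) in donor libraries (-5.03 ± 0.34, adjusted p = 1.63e-07). Sall3, a relative of Sall1, stood at 69.1, 99 and 80.8 against 0.871 to 4.4 (median 2.58, -4.72 ± 0.31). The highest donor value of both factors lay far below the lowest TCD host value. Spic, a factor of splenic red pulp and bone marrow macrophages, was 16.5 to 18.3 in donor libraries against 1.25, 0.241 and 0.845 (3.44 ± 0.16, adjusted p = 1.79e-08). Runx3, a factor of leukocyte maturation, was 13.7 to 26.7 (median 21) against 0.649, 0.302 and 0.362 (3.89 ± 0.26). In the TGF-beta pathway, 2 of 11 members were called higher and 3 lower, and without the 3 libraries the lower calls were 5. Of all tested genes, 18.4% were called higher and 18.6% lower, so the main counts do not set this list apart. Tgfbr1, a receptor subunit, was 1224 to 2036 against 3309, 2809 and 2656 (-0.83 ± 0.16, adjusted p = 0.00116). Smad3, a signal transducer of the pathway, had a difference of -1.15 ± 0.28 (adjusted p = 0.00535) and Smad7, its inhibitor, one of -1.12 ± 0.20 (adjusted p = 0.000688) with overlapping libraries.

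MHC class II genes had among the largest differences, with 8 of 10 tested members higher, 0 lower and a median of 4.13. Promoters of 3 called members are printed because class II genes are known to share a promoter module that CIITA acts on through bound factors. The X2 box and the Y box of that module have the cores TGACG and CCAAT. These are RefSeq windows of GRCm38.p6, the 150 bases before the gene start, 5′ to 3′ on the gene's strand, with each match to TGACG or CCAAT on either strand in capitals. H2-Aa lies at chr17:34287824-34287973 on the minus strand, H2-Eb1 at chr17:34305717-34305866 and H2-DMb1 at chr17:34153041-34153190, both on the plus strand.
H2-Aa: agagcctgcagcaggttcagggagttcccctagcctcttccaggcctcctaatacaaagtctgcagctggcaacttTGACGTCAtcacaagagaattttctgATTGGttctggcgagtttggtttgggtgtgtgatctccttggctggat
H2-Eb1: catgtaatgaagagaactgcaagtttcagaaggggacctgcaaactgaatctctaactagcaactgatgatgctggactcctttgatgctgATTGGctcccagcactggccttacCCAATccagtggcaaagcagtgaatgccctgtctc
H2-DMb1: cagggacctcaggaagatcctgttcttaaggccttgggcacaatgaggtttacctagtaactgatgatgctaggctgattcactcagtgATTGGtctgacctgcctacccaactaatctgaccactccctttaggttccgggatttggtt

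In the H2-Aa window TGACG lies at -74 to -70 and, on the opposite strand, at -71 to -67, so these matches overlap, and CCAAT lies on the opposite strand at -48 to -44. The H2-Eb1 window holds CCAAT at -59 to -55 on the opposite strand and at -35 to -31 on the gene's strand. In H2-DMb1 it lies at -61 to -57 on the opposite strand. Of all 32851 windows of this length in the table, 24.5% hold CCAAT, 13.3% hold TGACG and 3.7% hold both. CCAAT also occurs before H2-Oa and H2-Ob, the members that were not called. Neither motif occurs in the 2 windows of H2-DMa, a called member, but neither of these windows lies at the RefSeq gene start. Among the windows of the list TGACG occurs only in that of H2-Aa. With H2-DMa left aside, CCAAT occurs in windows of called and uncalled members alike, so these letters did not separate them. The table matched 8 of the 11 list members.

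H2-Aa (ENSMUSG00000036594, chr17:34282744-34287823), the class II alpha chain, was 5861 to 10866 with a median of 9777 in donor libraries. In TCD host libraries it stood at 98.2, 44.1 and 151, a log2 difference of 6.80 ± 0.36 (adjusted p = 3.38e-08). Its partner H2-Ab1, the beta chain, was 11421 to 23740 (median 21754) against 222, 166 and 452 (6.32 ± 0.37, adjusted p = 5.74e-08). The lowest value of both genes among donor libraries was thus many times the highest TCD host value. H2-Eb1, the beta chain of the other class II molecule, was 3607 to 8813 (median 7176) against 54.7, 27.6 and 107 (6.98 ± 0.42, adjusted p = 7.94e-08). Cd74, the invariant chain that guides class II molecules to endosomes, was 33423 to 65446 (median 54230) against 683, 579 and 1271 (6.09 ± 0.33, adjusted p = 3.61e-08). Ciita (ENSMUSG00000022504, chr16:10480059-10528418), the coactivator, was 65.1 to 301 (median 94.8) against 3.89, 0.362 and 1.21 (5.72 ± 0.20, adjusted p = 3.8e-09). H2-DMb1 and H2-DMa, the chains of the peptide editor, differed less, by 2.54 ± 0.15 and 1.52 ± 0.22. H2-Oa and H2-Ob, which restrain that editor, had differences of 0.24 ± 0.19 and -0.27 ± 0.14 (adjusted p = 0.364 and 0.163). H2-Ob was called lower under 5 alternatives, with an adjusted p of 0.0433 when rescaled to a common total, 0.0419 in the fit of the 9 donor and TCD host libraries, 0.0467 in the libraries of the higher API number alone, 0.0251 without GVHD host library 1 and 0.036 without the 3 libraries. Leaving out TCD host library 3 moved H2-Aa to 7.39 and H2-Eb1 to 7.65.

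MHC class I genes changed by less, with 9 of 14 members higher, 1 lower and a median of 0.86. Near-identical class I genes may share reads, so their separate values are uncertain. Nlrc5, the coactivator of class I genes, was 60.5 to 175 (median 70.1) in donor libraries and 17.5, 13.3 and 12.6 in TCD host libraries (2.58 ± 0.18, adjusted p = 2.29e-07). Tap1, a subunit of the peptide transporter, was 152 to 524 (median 196) against 107, 52 and 52.6 (1.95 ± 0.17, adjusted p = 1.88e-06). H2-D1, a classical class I chain, was 3691 to 5791 (median 4303) against 1269, 1534 and 1871 (1.52 ± 0.16, adjusted p = 8e-06). Interferon gamma response genes had 13 of 18 members higher, 0 lower and a median of 1.84. Gbp8, a guanylate-binding protein gene with close relatives, was 87.7 to 202 (median 108) against 4.06, 2.28 and 3.13 (5.04 ± 0.22, adjusted p = 1.35e-08). Ifi47, an interferon-induced GTPase gene, was 75.3 to 303 (median 195) against 9.91, 8.15 and 10.3 (4.15 ± 0.37). The groups did not overlap in any of these genes.

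Type I interferon response genes had 18 of 23 members higher, 0 lower and a median of 1.18. Bst2, which tethers budding virus particles, was 195 to 265 (median 247) in donor libraries against 59.7, 46.7 and 57.4 (2.10 ± 0.12, adjusted p = 5.08e-08). Oas1a, a sensor of double-stranded RNA, was 61.4 to 120 (median 79.5) against 33, 21.3 and 16.8 (1.92 ± 0.20). Stat2, a transcription factor of the interferon response, differed by 1.18 ± 0.13 (adjusted p = 9.94e-06) with overlapping libraries, since TCD host library 1 stood at 78.6 and the others at 31.9 and 25.6. Without the API number of the titles as a covariate Stat2 was not called (adjusted p = 0.0617).

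**Figure D4:**
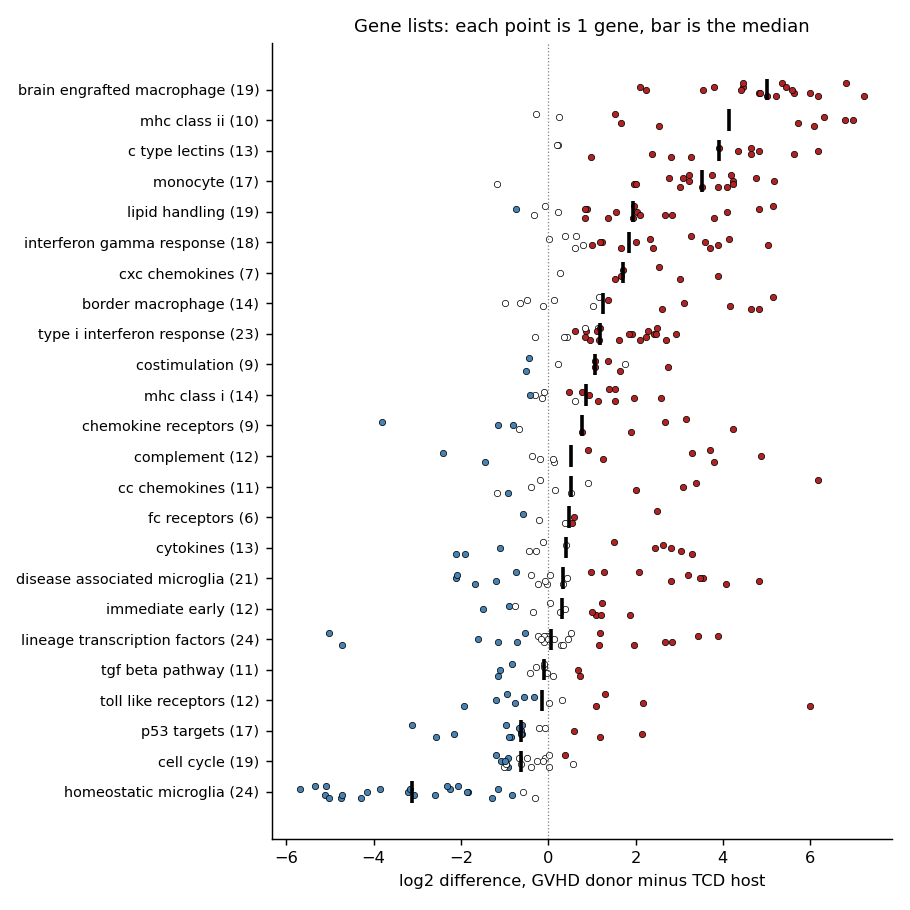
Log2 difference of donor macrophages minus TCD host microglia (x) for the tested members of 24 gene lists (y, number of members in brackets), with the median as a bar. Red points were called higher, blue points lower and white points were not called; the homeostatic microglia list has a median of -3.13 and the brain-engrafted macrophage list one of 5.02.

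CC chemokines, the ligands that recruit monocytes and lymphocytes, did not move as a group, with 4 of 11 members higher, 1 lower and a median of 0.51. Ccl8, a ligand of several CC receptors, was the largest, and it varied widely among donor libraries, from 28.7 to 703 with a median of 372. The TCD host libraries stood at 4.11, 1.21 and 4.59, and the log2 difference was 6.18 ± 0.82 (adjusted p = 6.57e-05), or 7.04 with the replicate number as a block and 6.82 without TCD host library 3. Ccl7, a neighbouring monocyte chemokine gene on chromosome 11, was 247 to 790 (median 403) against 47.9, 33 and 32.7 (3.38 ± 0.33, adjusted p = 4.82e-06). In contrast, Ccl2 and Ccl12 of the same cluster had differences of 0.15 ± 0.28 and 0.51 ± 0.27 (adjusted p = 0.728 and 0.163). Their libraries overlapped, with Ccl2 at 209 to 847 in donor libraries and 104, 524 and 521 in TCD host libraries. Ccl4, an inflammatory chemokine, was 147 to 988 (median 500) against 154, 1510 and 1271 (-0.92 ± 0.28, adjusted p = 0.0195). That call was lost without TCD host library 2 (adjusted p = 0.126) or 3 (0.0825) and without the API covariate (0.684). Ccl22, a ligand of CCR4, differed by 3.08 ± 0.76 (adjusted p = 0.0067), or by 3.75 with the replicate block, and was not called in the libraries of the higher API number alone (adjusted p = 0.055).

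CXC chemokines had 6 of 7 members higher, 0 lower and a median of 1.72. Cxcl16, the membrane-bound ligand of CXCR6, was 646 to 1024 (median 799) against 130, 158 and 139 (2.54 ± 0.14, adjusted p = 3.39e-08). Cxcl9, an interferon gamma-induced ligand of CXCR3 on T cells, was 19.8 to 191 (median 79.4) against 1.64, 4.71 and 10.7 (3.88 ± 0.65, adjusted p = 0.000434). Its difference was 2.98 without TCD host library 1, 4.61 without library 3 and 4.47 with the replicate block. Cxcl2, a neutrophil attractant, was 28.3 to 87.3 (median 64.8) against 8.18, 4.89 and 3.86 (3.01 ± 0.36). Among chemokine receptors 5 of 9 were higher and 3 lower, and without TCD host library 1 there were 3 higher calls. Ccr1 was 337 to 537 (median 411) against 57.9, 133 and 150 (1.90 ± 0.18, adjusted p = 3.51e-06). It binds inflammatory CC chemokines. Cxcr4, the receptor that retains cells in marrow, was 5.21 to 7.56 against 0, 0.0604 and 0.362 (2.67 ± 0.15). Ccr6, a receptor better known from lymphocytes, had donor values of 1.23 to 11.1, whereas TCD host library 1 stood at 2.12 and the others at 224 and 282. Its log2 difference of -3.81 ± 0.91 became -5.44 without TCD host library 1, -3.12 without library 2 and -2.93 without library 3, which was not called (adjusted p = 0.0517).

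Cytokine genes had 6 of 13 members higher and 3 lower, with a median of 0.41. Il1b, the inflammasome-processed cytokine, was 97.8 to 733 (median 418) against 11.7, 88.8 and 53.4 (2.82 ± 0.31, adjusted p = 1.32e-05). Il10, an anti-inflammatory cytokine, was 6.21 to 21.9 (median 10.4) against 1.04, 0.121 and 0.362 (3.04 ± 0.31, adjusted p = 6.94e-06). Il18bp, the soluble inhibitor of IL-18, was 34.9 to 110 (median 52.6) against 5.49, 4.59 and 6.16 (3.30 ± 0.28). Csf1, a growth factor of macrophages and microglia, was 4.91 to 23.1 (median 7.53) against 81.9, 37.4 and 29.7 (-2.12 ± 0.29, adjusted p = 0.000102). Costimulatory genes had 5 of 9 members higher and 2 lower (1 lower without TCD host library 1), with a median of 1.08. Cd40, the receptor for T-cell help, was 18 to 50.4 (median 30.8) against 2.51, 4.16 and 5.31 (2.74 ± 0.35, adjusted p = 5.22e-05). Cd274, which encodes the inhibitory ligand PD-L1, was 16.1 to 44.3 (median 18.4) against 7.31, 8.57 and 5.55 (1.64 ± 0.29, adjusted p = 0.000593).

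Lipid-handling genes had 15 of 19 members higher, 1 lower and a median of 1.94. Msr1, a scavenger receptor for modified lipoprotein, was 41.9 to 108 (median 77.2) against 5.06, 3.74 and 3.98 (3.80 ± 0.26, adjusted p = 1.99e-07). Soat1, which esterifies cholesterol for storage, was 283 to 380 (median 315) against 146, 95.8 and 102 (1.56 ± 0.08, adjusted p = 3.4e-08). Nceh1, a cholesterol ester hydrolase gene, was 101 to 130 (median 124) against 20.8, 31.1 and 30.9 (2.11 ± 0.15). Genes of disease-associated microglia, a state seen in degenerating brain, went both ways, with 9 of 21 higher, 5 lower and a median of 0.34. Lgals3, which encodes galectin-3, was 114 to 401 (median 209) against 15.1, 8.45 and 11.1 (4.07 ± 0.33, adjusted p = 8.47e-07). Cst7, the cystatin F gene, was 4.98 to 8.99 against 33, 27.9 and 34.3 (-2.09 ± 0.18, adjusted p = 1.6e-06), and Cd9, a tetraspanin gene, was 309 to 407 against 1100, 979 and 1383 (-1.67 ± 0.13). Genes of 1 state signature thus had non-overlapping differences in opposite directions.

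Complement genes had 6 of 12 members higher, 2 lower and a median of 0.52. Itgam, the CD11b chain of complement receptor 3, was 243 to 331 (median 265) against 750, 749 and 755 (-1.46 ± 0.10, adjusted p = 3.04e-07). C3ar1, the receptor for C3a, was 1144 to 1568 against 732, 698 and 753 (0.91 ± 0.11). C4b, a component of the classical pathway, differed by 3.79 ± 0.45 (adjusted p = 2.36e-05) with overlapping libraries. Toll-like receptors had 4 of 12 members higher, 6 lower and a median of -0.15. Tlr8, an endosomal sensor of single-stranded RNA, was 165 to 211 (median 196) against 5.02, 0.785 and 2.41 (6.00 ± 0.27, adjusted p = 1.36e-08). Tlr3, the endosomal sensor of double-stranded RNA, was 32.5 to 50.8 (median 37.9) against 142, 168 and 162 (-1.94 ± 0.14, adjusted p = 2.53e-07). Fc receptors had 3 of 6 members higher and 1 lower, and without TCD host library 1 there was 1 higher and 1 lower. Fcgr4, an activating receptor for IgG, was the higher gene with the largest difference, at 39.7 to 118 (median 93.9) against 10.5, 13.2 and 20.2 (2.50 ± 0.34, adjusted p = 7.55e-05). Fcgr2b and Fcer1g were called with small differences (0.59 ± 0.16 and 0.55 ± 0.18), and these calls were not stable. Both were lost without TCD host library 1 (adjusted p = 0.0656 and 0.0784), when rescaled to a common total (0.0597 and 0.112) and in the libraries of the higher API number alone (0.0677 and 0.0898). Fcer1g was also lost in the fit of the 9 donor and TCD host libraries (0.0738), without TCD host library 2 (0.146), and without donor library 1, 2, 3 or 4 (0.0513 to 0.0537).

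Targets of p53, the factor that answers DNA damage, had 11 of 17 members lower, 3 higher and a median of -0.63. Without TCD host library 1, 7 were lower, and without the 3 libraries 9 were. Phlda3, an inhibitor of AKT signalling, was 0.257 to 1.69 (median 1.3) in donor libraries against 22.5, 16.7 and 15.7 (-3.13 ± 0.38, adjusted p = 3.03e-05). Eda2r, a TNF receptor family gene, was 0 to 0.156 against 4.67, 3.26 and 3.38 (-2.15 ± 0.29, adjusted p = 6.66e-05). Pmaip1, which encodes the cell death protein NOXA, went the other way, at 189 to 567 (median 429) against 51.2, 111 and 82.7 (2.14 ± 0.18, adjusted p = 1.36e-06). Cell cycle genes had 6 of 19 members lower, 1 higher and a median of -0.63, and without the 3 libraries 3 were lower and 2 higher. Tyms, which makes thymidylate for DNA, was 10.9 to 15.2 against 24.1, 30.1 and 25.4 (-1.0 ± 0.17, adjusted p = 0.000421). Immediate early genes, which are switched on quickly by many stimuli, had 5 of 12 higher and 2 lower. Their groups overlapped in every member. Nr4a1 differed by 1.87 ± 0.29 and Fos by 1.22 ± 0.27, and Egr1 by -1.49 ± 0.31, a call that was lost without the API covariate (adjusted p = 0.231). In each of these 3 genes TCD host library 1 was the lowest of the TCD host libraries (60.1, 960 and 1171), and the part of that library in the list was not tested.

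GVHD host microglia were set against both groups, and few genes were called between them and TCD host microglia. In the same model 12 genes were higher in GVHD than in TCD host microglia (0.0917%) and 2 were lower (0.0153%). These counts are not given here without TCD host library 1, and a gene not called was not shown to be equal. The median log2 difference was 1.40 over the interferon gamma list and 1.72 over the class II list, against -0.03 over all tested genes. Donor macrophages and GVHD host microglia differed in 2533 higher genes (19.4%) and 2519 lower genes (19.2%). These comparisons share libraries, so their values are given side by side only. A position was computed for each gene, with 0 at the fitted TCD host level and 1 at the donor level. Among the 1196 genes at least 2-fold higher in donor macrophages, the median position of GVHD host microglia was 0.078, and 924 genes (77.3%) lay under 0.25. Another 244 lay between 0.25 and 0.75 and 28 above. Among the 1013 genes at least 2-fold lower, the median was 0.072, with 829 (81.8%) under 0.25, 182 between 0.25 and 0.75 and 2 above. For most of these genes GVHD host microglia thus lay near TCD host microglia.

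A gene was counted as strictly intermediate when all 4 GVHD host libraries lay between all 3 TCD host and all 6 donor libraries. That held for 96 called genes higher in donor macrophages (0.734%) and 76 lower (0.581%). Each host library narrows the count: without TCD host library 1 it was 235 and 196, and without GVHD host library 1 it was 174 and 124. The 8 with the largest differences in the higher group were H2-Eb1, H2-Aa, H2-Ab1, Cd74, Ciita, Slamf7, Cd36 and Gbp8, and 5 of these 8 are on the class II list. Other strictly intermediate genes of the higher group that are named above were H2-DMb1, H2-DMa, Cybb, Ifi47, Bst2, Cxcl16 and Nceh1, with positions of 0.22, 0.53, 0.17, 0.35, 0.21, 0.16 and 0.32. Of the 10 class II members 7 were strictly intermediate, against 0 of 14 class I members. H2-Aa stood at 1329, 522, 358 and 529 in GVHD host libraries 1 to 4, a position of 0.42. The step from TCD host was 2.83 ± 0.39 (adjusted p = 0.0134) and the step on to donor macrophages was 3.96 (adjusted p = 9.3e-07). Ciita stood at 22.4, 4.99, 4.97 and 6.92, with steps of 2.02 ± 0.22 (adjusted p = 0.00357) and 3.70 (adjusted p = 1.54e-08) and a position of 0.35. Cd74 stood at 11913, 4994, 3433 and 4280, with steps of 2.82 ± 0.35 (adjusted p = 0.00873) and 3.27 (adjusted p = 2.46e-06). In all 3 genes GVHD host library 1, the 1 GVHD host library of the lower API number, was the highest. It was also the highest of its group in donor-higher genes outside class II, such as Plbd1 (15.8, next 4.65), Klra2 (11.8, next 3.40), Itgal (24.0, next 7.84) and Acp5 (10.4, next 2.61). Others went the other way, with Il1b (26.2, next 89.7) and Cxcl2 (0.897, next 2.72) lowest there. The summed brain-engrafted macrophage list was 7223 in GVHD host library 1 and 3665 to 4967 in the other GVHD host libraries. For the border list these values were 261 and 141 to 146, and for the monocyte list 143 and 129 to 178. Host libraries are bulk samples too, and whether donor cells among them raised these levels was not tested.

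**Figure D5:**
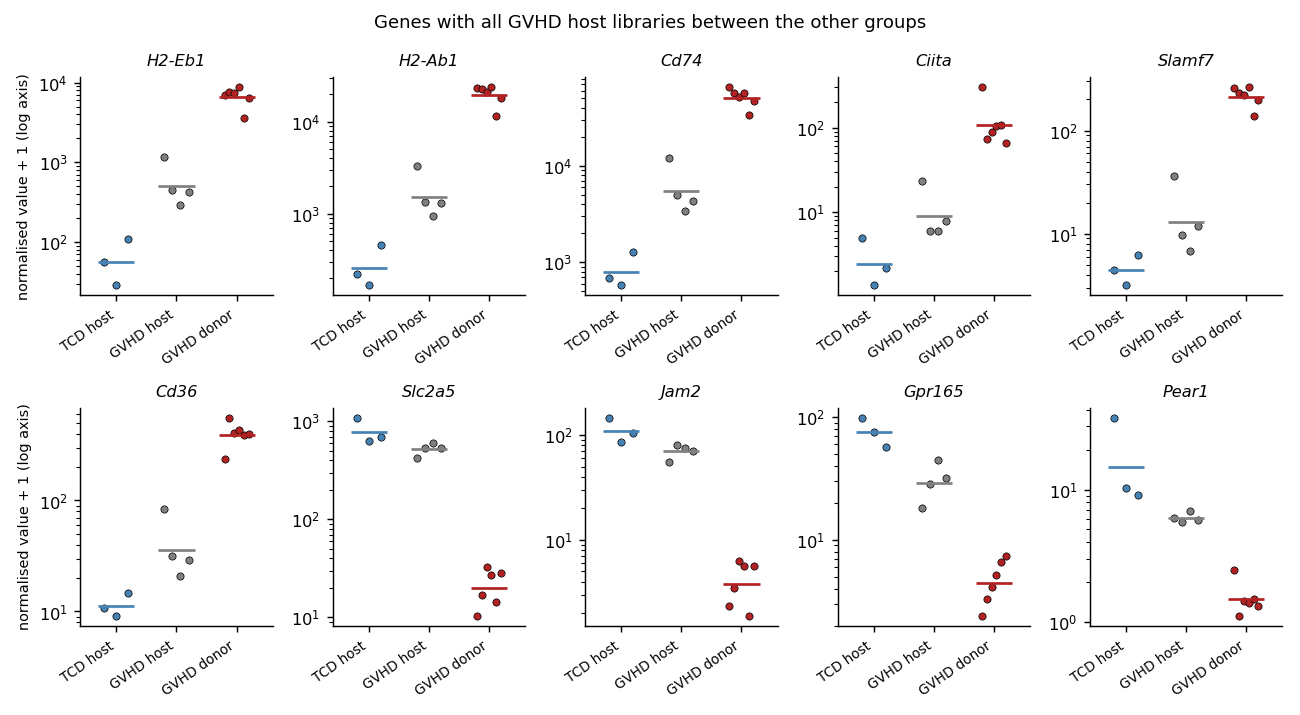
Normalised value plus 1 on a log axis in every library for 6 genes higher (H2-Eb1, H2-Ab1, Cd74, Ciita, Slamf7, Cd36) and 4 genes lower (Slc2a5, Jam2, Gpr165, Pear1) in donor macrophages; bars are means on the log scale. All 4 GVHD host libraries lie between the TCD host and donor libraries in each panel.

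Both steps were called in 8 strictly intermediate genes that rose and in 1 that fell. Besides H2-Aa, Cd74 and Ciita these were H2-Ab1, H2-Eb1, Gbp8, Cpq and H2-M2 upward and Thbs2 downward, the last 3 of which were picked after their values were seen. H2-Ab1 stood at 3294, 1332, 934 and 1310, with a first step of 2.61 ± 0.39 (adjusted p = 0.0226), and H2-Eb1 at 1154, 447, 294 and 426, with one of 3.23 ± 0.45 (adjusted p = 0.0134). Gbp8 stood at 58.8, 22.2, 16.7 and 17.1 in GVHD host libraries, a position of 0.54, with steps of 2.74 ± 0.24 (adjusted p = 0.000779) and 2.30 (adjusted p = 1.71e-06). H2-M2, a nonclassical class I gene, stood at 12.8, 4.27, 5.72 and 4.79, between TCD host values of 1.08, 0.694 and 1.46 and donor values of 36.8 to 95.5. Cpq, a carboxypeptidase gene, stood at 147, 135, 94.8 and 134, between 47.8, 44.6 and 71.7 and donor values of 219 to 261. Thbs2, the matrix protein thrombospondin 2, stood at 0.78, 2.46, 1.66 and 2.04, between 9.6, 7.06 and 5.92 and donor values of 0.156 to 0.47. Slamf7, a receptor of activated leukocytes, stood at 35.1, 8.79, 5.86 and 10.9, between TCD host values of 3.46, 2.17 and 5.19 and donor values of 138 to 263. Cd36, a fatty acid and scavenger receptor, stood at 82.6, 30.9, 19.9 and 27.9, between 9.73, 8.09 and 13.6 and donor values of 237 to 554. The first step of Slamf7 (1.62 ± 0.38) and that of Cd36 (1.68 ± 0.39) were not called (adjusted p = 0.161 for both).

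The 8 largest differences among strictly intermediate genes lower in donor macrophages had positions from 0.09 to 0.38, all nearer to TCD host microglia than to donor macrophages. Slc2a5 had a position of 0.12, with GVHD host values of 421, 533, 598 and 534, and Jam2, a junction protein gene, one of 0.14. Gpr165, an orphan receptor gene on the microglial list, was nearer the middle at 0.34, with 17.1, 27.3, 43.5 and 31.1 between TCD host values of 97.3, 75 and 56.4 and donor values of 1.4 to 6.39. Pear1, a platelet endothelial receptor gene, had a position of 0.38 and Mdfi, an inhibitor of myogenic factors, one of 0.32. The other 3 were Tspan18, Zfp354a and Arhgap29, with positions of 0.09, 0.13 and 0.14. Tgfbr1, named above, was also strictly intermediate, at 0.32. No first step of these 8 genes was called, with adjusted p from 0.163 (Pear1) to 0.849 (Tspan18).

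Some interferon-induced genes of the higher group had positions above 0.5 without being strictly intermediate. H2-D1 stood at 3935, 3469, 3326 and 3370 in GVHD host libraries, a position of 0.79, with a called first step of 1.20 ± 0.17 (adjusted p = 0.0134) and a second of 0.32 (adjusted p = 0.0972). Cxcl9 stood at 101, 32, 36.5 and 35.6, a position of 0.80, with a first step not called (adjusted p = 0.141). Nlrc5 stood at 81.5, 28, 25.7 and 29.2, a position of 0.53, with a first step of 1.38 ± 0.19 (adjusted p = 0.0134) and a second of 1.20 (adjusted p = 7.14e-05). Its libraries 2 to 4 lay below the lowest donor library (60.5) and its library 1 within the donor range. GVHD host library 1 was again the highest in each. The summed value of the 18 interferon gamma response genes was 3498 in that library and 1781 to 2154 in the other 3, against 978 to 1118 in TCD host libraries and 1703 to 5513 in donor libraries.

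Markers of other cell types gave mixed lists. The summed value of 11 T cell markers was 37.2 to 72.1 in donor libraries and 48.7 to 113 in TCD host libraries, with 0 of 10 tested members higher and 1 lower. The lower member, Il7r, made up most of the sum in TCD host libraries (32.1, 90.2 and 100), so the sums do not compare T cells as such. Cd3g, a T cell receptor gene, was 5.87 in donor library 1 and 0.39 to 1.08 in the other donor libraries. B cell markers had 1 of 6 higher and 1 lower, the latter lost without TCD host library 1. Neutrophil markers summed to 21.4 to 625 in donor libraries and 3.5 to 115 in TCD host libraries, with 4 of 9 higher and 0 lower. The 625 came from donor library 1, and the other donor libraries had at most 144. Donor library 1 also had the B cell gene Igkc at 208, against 0.12 to 1.71 in the other donor libraries and 15.1 in TCD host library 1. Whether other cells were present in donor library 1 was not tested. Mmp9, a gelatinase gene of neutrophils and macrophages, was 5.79 to 19.9 against 3.76, 0.483 and 0.121 (2.85 ± 0.40). Dendritic cell markers summed to 23.3 to 325 against 10.9 to 27.2, with 5 of 7 higher and 1 lower, or 3 and 1 without TCD host library 1. Clec9a and Flt3, genes of conventional dendritic cells and their precursors, were 1.76 to 10.7 and 3.97 to 10.6 in donor libraries and under 1 in all TCD host libraries. Their part in the monocyte, lectin and class II results was not tested. Astrocyte markers summed to 48.6 to 88.2 in donor libraries and 248 to 301 in TCD host libraries, with 3 of 7 members higher and 1 lower. The lower member, Slc1a3, is a glutamate transporter gene that stood at 237, 288 and 278 in TCD host libraries against 18.2 to 43.3 (-3.20 ± 0.25, adjusted p = 5.8e-07). Neuron, oligodendrocyte, endothelial and erythroid lists had 1 of 3, 2 of 5, 2 of 5 and 0 of 3 members higher, and 2 endothelial members were lower. Without TCD host library 1 the neuron call was lost and 1 endothelial member was lower, and the same held without the 3 libraries. Defining markers such as Ly6g, Cd8a, Rbfox3, Aqp4, Mog and Cldn5 are not listed in the table used here.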

How the data were processed

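RNA was measured in 13 libraries of cells sorted from mouse brain. The deposited table holds one signal per gene and library, named normalised counts by its authors, and library totals ran from 890564.5 to 1090630.5. The submitters' processing notes name GRCm38 as the build and cutadapt 1.9, RSEM 1.2.30 and STAR 2.5.2a as the tools, with no roles. The scaling method and annotation release are not given in the sources used here, and neither is which of the RNA kits served which sample. Low values were whole multiples of a library's smallest step, within 0.02 of a step, in only 68.4% to 74.1% of cases, so reads were not recovered and no count test was run. The table lists 13783 genes, of which 13570 identifiers had a symbol and position in GENCODE M21. Depth was estimated as the total over the step.

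Groups came from the titles. Values were taken as log2(value + 1), a scale that understates the change of low genes, and 13086 genes passed a minimum of 1 in 3 or more libraries. In R 4.3.3, limma 3.58.1 was used to fit group and the API number of the titles, which has 1 of 2 values per library, to all 13 libraries, with a variance trend. Tests were two-sided, p-values were adjusted by Benjamini-Hochberg across the 13086 genes, and calls were made under 0.05. Donor library 1, GVHD host library 1 and TCD host library 1 carry the lower API number and the other libraries the higher. Members, gene lists and tests were chosen with earlier results of these data known. Named genes were the 12 largest called differences in each direction without overlap and still called without TCD host library 1, up to 4 members of smallest p per list, the 5 given markers, fixed class II and Ccl genes, and the 8 largest strictly intermediate differences in each direction. Predicted genes were passed over, and a few genes that meet the rule are not reported here. Leng8, Ccr6, Csf1r, Fcrls, Ccl9, H2-Oa, H2-Ob, H2-DMa and the genes called in both steps were named after their values were seen.

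Replicate numbers 1 to 3 of the titles are shared by the donor and TCD host groups. Deviations of same-numbered libraries from their group means correlated at 0.585, 0.308 and 0.415, all above 0.1, and differently numbered ones at -0.582 to 0.532. Column names carry other numbers, 3 and 4 for TCD host libraries 2 and 3, and 4 and 5 for GVHD host libraries 3 and 4. From donor library 2 on, the column number is 1 below the title number. Some differently numbered pairs also correlated as highly as same-numbered ones, so the correlations do not establish a pairing. A fit with the title number as a block was run beside the main one, as a possible pairing not stated as shared animals. Pairing by column number was not tested. Alternatives covered the pseudocount, filter, scale, variance trend, covariate, block, libraries in the fit and leaving out each library. Leaving out donor libraries 1 and 5 and TCD host library 1 together was added after seeing the data. Motif matches were read from the RefSeq promoter table of GRCm38.p6.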

Additional observations from a re-analysis of the deposited data

Results flagged for a closer look

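Among 224 groups of donor or GVHD host libraries examined for 112 named genes, 20 held a library far from the others of its group, where chance gives about 1 in 20 groups. In all, 8 of the 20 were GVHD host library 1, 5 donor library 1 and 4 donor library 5. GVHD host library 1 was the highest of its group in Nlrc5 (81.5, the next library at 29.2), Stat2 (86.1, next 40.8), Cxcl9 (101, next 36.5), Cd274 (27.4, next 15.7) and Clec4n (5.66, next 2.68). It was the lowest in Ccl4 (291, next 1326), Il1b (26.2, next 89.7) and Ace (0.078, next 0.227). The Ace values of all GVHD host libraries are near 0 and rest on few reads. Donor library 1 was the highest donor library in Ciita (301, next 106.9), Nlrc5 (175, next 77.2), Stat2 (152.5, next 83.7) and Pear1 (1.47, next 0.48) and the lowest in Siglech (60.8, next 154). Donor library 5 was the lowest in H2-Eb1 (3607, next 6511), Klra2 (137, next 213), H2-DMa (705, next 1023) and Fcgr2b (458, next 667). Donor library 4 had the highest Ccl12 (701, next 473), donor library 3 the lowest Nceh1 (101, next 121) and GVHD host library 4 the highest Sall3 (121.5, next 87.4). Donor library 1 and GVHD host library 1 both carry the lower API number of the titles.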

How the results depend on the processing

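Over 26 alternatives, 98 of the 105 called genes named here kept their direction and call, which the choice of genes partly fixed, since large differences, small p and a call without TCD host library 1 were among the rules. The counts of 2408 higher and 2437 lower genes stayed within 1.5 times, at 1861 (without TCD host library 2) to 2715 and 1887 (without TCD host library 3) to 2645 over leaving out each library. With the replicate block they were 2356 and 2126, with 4050 of 4845 calls shared. Among the 112 named genes checked, the block changed no call apart from that of Csf1r. Cd3g, outside that set, was called higher with the block (0.78, adjusted p = 0.0344) and not in the main fit (0.0801). List members not described above also lost calls with the block, among them Nefl and Cd79b (adjusted p = 0.179 and 0.0654). With a pseudocount of 5 the genes at least 2-fold apart fell from 1196 and 1013 to 760 and 596. Leaving out 1 library gave 1124 to 1281 and 977 to 1085. The counts of 96 and 76 strictly intermediate genes ranged over 97 to 235 and 76 to 196 when 1 library was left out, since fewer libraries make the condition easier to meet. They were 154 and 158 without GVHD host library 3, 162 and 141 without TCD host library 3, and 155 genes were lower without TCD host library 2. In the libraries of the higher API number alone they were 392 and 329, without the 3 libraries that stood apart 299 and 230, and by position between 0.25 and 0.75 they were 659 and 565. The fit of the 9 donor and TCD host libraries alone gives no intermediate count. Differences that were not called changed sign for Ccl2 when rescaled to a common total (-0.011) and in libraries of the higher API number alone (-0.13), and ranged from -0.076 (without TCD host library 1) to 0.28 when 1 library was left out. For Fcrls they did so in libraries of the higher API number alone (0.41) and without the 3 libraries (0.27), and ranged from -0.80 to 0.49 (without TCD host library 1) when 1 library was left out. The causes were not tested. Values near 1 rest on few reads, and genes outside the deposited table were not analysed here.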
